A study of Mus musculus with 43 samples.

Results

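The secreted factors by which the cells around mouse germ cells act on them were examined in Prmt1-dKO and WT testes: Gdnf, Kitl, Fgf2, Cxcl12, Csf1, Bmp4, Inhba, Wnt5a, Nrg1 and Igf1. They are 10 of the 55401 gene identifiers in the RNA tables, matched by their GENCODE vM21 symbol with the version of the identifier ignored, and all 10 were found. In the whole testis at postnatal day 7 (P7), Bmp4 was higher and Inhba was lower in Prmt1-dKO by edgeR, and the other 8 factors did not pass its test (an FDR below 0.05), though Igf1 did with DESeq2. These 2 of 10 are close to the 19.1% of all genes that passed in either direction, so the count is not a result about the factors. In WT spermatogonia sorted at the same age 6 of the factors had no count, while Kitl and Fgf2 were detected in both libraries. There 7 of the 10 were higher in both Prmt1-dKO libraries than in both WT libraries on the CPM scale (counts scaled to library size), as were 32.9% of the 24522 genes with a count in any of these 4 libraries, and 1, Fgf2, was lower in both, as were 14.9% of those genes. In the sorted cells edgeR called no gene at all (0 of 16443), and the summed macrophage markers were higher in both Prmt1-dKO libraries too.

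Spermatogonial stem cells divide or differentiate under the control of short-range ligands. GDNF, made by Sertoli and peritubular myoid cells, binds GFRA1 and RET on undifferentiated spermatogonia and sustains their self-renewal, and FGF2 and the chemokine CXCL12 act beside it. KIT ligand from Sertoli cells drives the differentiating spermatogonia, which carry KIT, while BMP4, the activin A subunit encoded by Inhba, and neuregulin 1 act on their differentiation or on Sertoli cell growth.

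The whole-testis data were 3 WT and 3 Prmt1-dKO bulk RNA-seq libraries at P7. The sorted data were 2 WT and 2 Prmt1-dKO Smart-seq2 libraries of GFP-positive spermatogonia at P7, and peaks of 7 histone marks came from 33 CUT&Tag lists at P7 and P14. Prmt1-dKO animals carried Prmt1 lox/lox with Ddx4-CreERT2, a Cre knocked in at the germ-cell gene Ddx4 and activated by tamoxifen on 3 days, so that exons 4 and 5 are removed in germ cells. PRMT1 is the main enzyme that places asymmetric dimethyl groups on arginines. All mice were C57BL/6J. The labels call the controls WT, while the methods of the sort name heterozygous Ddx4-GFP-CreERT2-Prmt1 +/lox animals. The CUT&Tag libraries were of dissociated tubule cells passed through a strainer to deplete Sertoli cells, from WT animals except for 2 libraries of H4R3me2s from Prmt1-dKO at P7. The labels do not say which animals a library came from, so p-values measure the spread between these libraries. The bulk libraries bear the cell type label spermatogonia, but the protocol takes RNA from the testis, and all 8 Sertoli and all 7 Leydig markers had counts in each of the 6.

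The bulk libraries summed to 12396360 to 16598265 counts and the Smart-seq2 libraries to 15610394 to 18547101. In sorted cells 17114 and 15595 genes had a count in WT, and 21416 and 20206 in Prmt1-dKO. Prmt1 itself was read at 236.8, 218.9 and 246.8 CPM in WT testes and at 145.7, 198.8 and 157.6 CPM in Prmt1-dKO testes. Every Prmt1-dKO testis was below every WT testis (log2 fold change -0.49, SE 0.13, FDR = 0.0334 by the quasi-likelihood test of edgeR, n = 3 and 3). In sorted cells Prmt1 was at 216.3 and 149.3 CPM in WT and at 112.4 and 86.5 CPM in Prmt1-dKO (edgeR FDR = 0.133). The gene totals also hold reads of the exons that are not floxed, so they do not measure the share of cells with the deletion.

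The sequences in front of 3 of the factors, chosen for the values described next, are shown. A link between their letters and those values was not tested. Bmp4 and Inhba changed in opposite directions, and Kitl is among the highest of the factors. The RefSeq promoter windows (build GRCm38.p6, 250 bases before to 50 after an annotated start) are given 5′ to 3′ on the strand of the gene, with matches on either strand in capitals. The GC box was searched as GGGCGG. The other motif marked in this way, the TATA box of core promoters, was searched by its letters TATAAA.
Bmp4, chr14:46390620-46390919, minus strand: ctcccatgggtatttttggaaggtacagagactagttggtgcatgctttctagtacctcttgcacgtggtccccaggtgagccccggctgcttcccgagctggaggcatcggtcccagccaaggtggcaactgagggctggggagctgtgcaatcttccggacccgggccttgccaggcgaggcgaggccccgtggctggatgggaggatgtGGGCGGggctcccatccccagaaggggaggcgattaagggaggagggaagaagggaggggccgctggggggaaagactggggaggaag
Inhba, chr13:16011601-16011900, plus strand: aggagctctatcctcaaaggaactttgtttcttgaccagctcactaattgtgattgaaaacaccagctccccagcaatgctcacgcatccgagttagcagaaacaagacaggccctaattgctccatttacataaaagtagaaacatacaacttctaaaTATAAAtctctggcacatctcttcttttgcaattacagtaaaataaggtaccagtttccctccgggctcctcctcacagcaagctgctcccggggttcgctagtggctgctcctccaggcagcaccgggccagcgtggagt
Kitl, chr10:100015571-100015870, plus strand: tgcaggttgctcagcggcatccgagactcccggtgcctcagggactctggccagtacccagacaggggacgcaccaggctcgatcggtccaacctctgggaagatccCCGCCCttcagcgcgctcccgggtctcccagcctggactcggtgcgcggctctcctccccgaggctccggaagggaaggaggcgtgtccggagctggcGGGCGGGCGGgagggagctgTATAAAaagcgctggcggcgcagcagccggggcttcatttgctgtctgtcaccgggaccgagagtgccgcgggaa

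The Kitl window held 28 CpG dinucleotides, 3 GC boxes, a pair of which overlap, and 1 TATA box, and 12.9% of the 32851 promoters of the table held more CpG. The Bmp4 window held 12 CpG and 1 GC box, and 37.9% of promoters held more CpG. The Inhba window held 7 CpG, the median of all promoters, no GC box and 1 TATA box. Its TATA match begins at -91 from the annotated start, and that of Kitl at -25. Of the 10 factors 8 had a promoter in the table, with 9 windows in all, and Wnt5a and Nrg1 had none. A GC box was found in 5 of the 9 windows and in 35.7% of all promoters. A TATA box was found in 3 of the 9, against 13.6% of all. A cAMP response element was in 0 of the 9 and in 1.79% of all. A match is a description of the letters only.

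Levels between genes can be compared only per length. On the TPM scale, which RSEM corrects for length, Cxcl12 led in WT testes at 119.8 ± 4.5 (SD, n = 3), followed by Kitl at 108.3 ± 17.2, and their ranges overlapped. Igf1 at 46.1 ± 1.35 TPM and Wnt5a at 36.5 ± 5.0 TPM came next, each clear of its neighbours. Inhba at 16.8 ± 2.2 TPM, Gdnf at 13.9 ± 1.91 TPM, Bmp4 at 10.6 ± 6.69 TPM, Csf1 at 9.36 ± 0.84 TPM and Fgf2 at 9.0 ± 1.33 TPM followed, and neighbours in this order overlapped. Nrg1 was lowest at 4.48 ± 0.888 TPM, below every Fgf2 value.

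Bmp4 (chr14:46383520-46390669 of GRCm38), a ligand of the TGF-beta family, was at 5.89, 7.48 and 6.79 CPM in the WT testes. In the Prmt1-dKO testes it was at 13.1, 19.4 and 12.8 CPM. The groups did not overlap, and the mean rose from 6.72 ± 0.797 to 15.1 ± 3.73 CPM (SD, n = 3 each), a 2.24-fold change (log2 1.16, SE 0.20, edgeR FDR = 0.00595). Of the 16555 genes tested 5.32% were called higher (FDR below 0.05 and at least 2-fold) and 20.9% had every Prmt1-dKO testis above every WT testis. Without Prmt1-dKO replicate 2 the log2 fold change was 0.94, below 2-fold, with an FDR still under the threshold. On the TPM scale WT was at 6.02, 7.55 and 18.3 and Prmt1-dKO at 12.6, 16.7 and 14.0, so that WT replicate 3 stood above all Prmt1-dKO libraries and the groups overlapped. An antisense transcript, Gm15222, overlaps 1764 bp of the gene and was read at 12, 20 and 16 counts in WT and at 46, 53 and 64 in Prmt1-dKO. The sources do not say that counting used the strand, so reads of the pair cannot be told apart.

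Inhba (chr13:16011851-16031621) encodes the beta A subunit of activin A. It was read at 74.2, 65.8 and 59.8 CPM in WT testes. It was at 26.9, 14.0 and 38.7 CPM in Prmt1-dKO testes, with Prmt1-dKO replicate 2 the lowest and no overlap. It fell 2.50-fold (log2 fold change -1.32, SE 0.29, edgeR FDR = 0.0153, n = 3 and 3). Of all genes tested 1.78% were called lower, and in 19.9% every Prmt1-dKO testis was below every WT testis. Its test was lost without WT replicate 1 (log2 fold change -1.25, edgeR FDR = 0.061) and without WT replicate 2 (-1.34, edgeR FDR = 0.0524). The TPM values did not overlap either, at 18.9, 16.9 and 14.5 in WT and at 6.60, 2.83 and 8.91 in Prmt1-dKO.

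**Figure D1:**
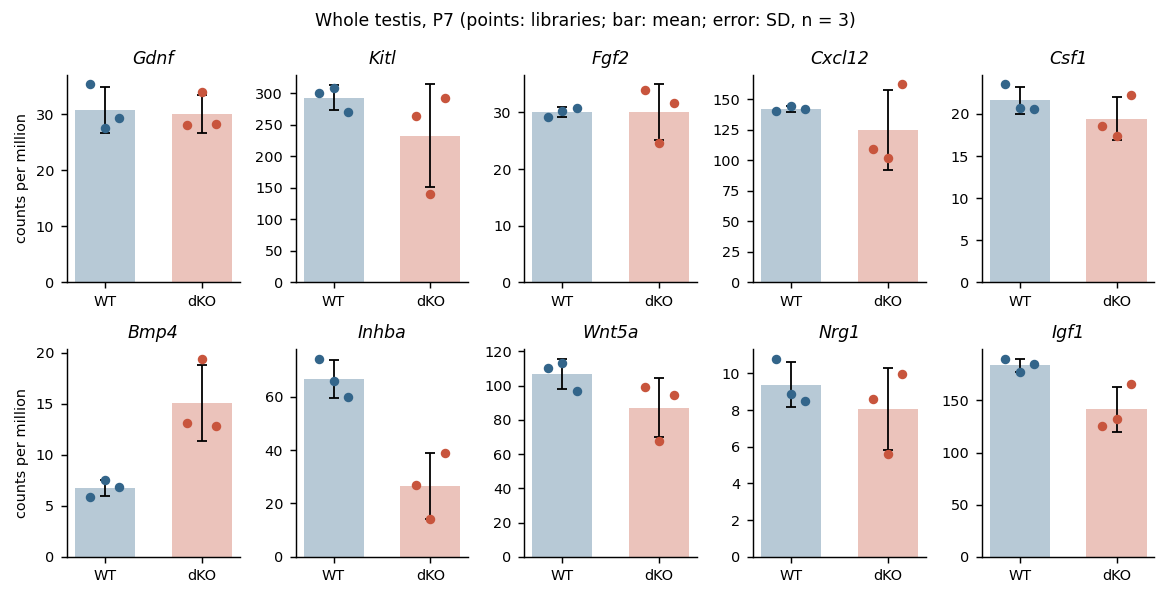
CPM of the 10 factors in whole testis at P7, with 1 point per library, bars for the mean and error bars for the SD of 3 WT (blue) and 3 Prmt1-dKO (red) libraries, and an axis of its own for each gene. The Bmp4 points of Prmt1-dKO all lie above those of WT, those of Inhba and Igf1 all lie below, and the other 7 panels overlap.

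The remaining 8 factors did not pass the test of edgeR in the whole testis. Igf1 (chr10:87858265-87937042), a growth factor for Sertoli and Leydig cells, was at 189.3, 177.1 and 185.0 CPM in WT and at 125.9, 132.2 and 166.2 CPM in Prmt1-dKO. Its groups did not overlap, and it missed the threshold (log2 fold change -0.38, SE 0.12, edgeR FDR = 0.0634). Across the alternatives its FDR ran from 0.0168 to 0.202, and it was under the threshold with DESeq2 (0.0307), with no filter on low counts (0.0391) and without Prmt1-dKO replicate 2 (0.0284) or 3 (0.0168). Cxcl12 (chr6:117168535-117181367) was at 140.2, 144.4 and 141.8 CPM in WT and at 109.5, 102.3 and 162.3 CPM in Prmt1-dKO (log2 fold change -0.19, SE 0.17, edgeR FDR = 0.466). Without Prmt1-dKO replicate 3, the high one, it was at -0.43 with an FDR of 0.0303.

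Kitl (chr10:100015630-100100416) was at 299.7, 307.8 and 270.2 CPM in WT and at 264.6, 139.5 and 293.0 CPM in Prmt1-dKO. The groups overlapped in CPM, with Prmt1-dKO replicate 2 far below the others (log2 fold change -0.33, SE 0.23, edgeR FDR = 0.355). Its TPM did not overlap, at 112.5, 123.0 and 89.4 in WT and at 83.3, 33.9 and 85.0 in Prmt1-dKO. Wnt5a (chr14:28504750-28527448), a non-canonical WNT ligand, was at 110.3, 113.4 and 96.8 CPM in WT and at 99.1, 67.4 and 94.6 CPM in Prmt1-dKO (-0.30, SE 0.15, edgeR FDR = 0.21). The Wnt5a groups also overlapped in CPM but not in TPM, at 36.7, 41.4 and 31.4 in WT and at 30.7, 16.9 and 28.3 in Prmt1-dKO. Prmt1-dKO replicate 2 was low for both, as it was for most of the list.

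Gdnf (chr15:7810846-7837575) was read at 35.3, 27.6 and 29.3 CPM in WT and at 28.0, 33.9 and 28.2 CPM in Prmt1-dKO, with a log2 fold change of -0.03 (SE 0.14, edgeR FDR = 0.887). Its TPM did not overlap, at 16.1, 12.8 and 12.8 in WT and at 12.3, 12.3 and 11.7 in Prmt1-dKO. Fgf2 (chr3:37348346-37410108) was at 29.1, 30.3 and 30.7 CPM in WT and at 33.9, 24.6 and 31.7 CPM in Prmt1-dKO, with a log2 fold change of 0.00 (SE 0.14, edgeR FDR = 0.992). The direction of Gdnf turned without WT replicate 1 or Prmt1-dKO replicate 3, and that of Fgf2 turned under most alternatives. Csf1 (chr3:107741048-107760469), the growth factor of macrophages, was at -0.15 (SE 0.14, edgeR FDR = 0.484), with 20.6 to 23.5 CPM in WT and 17.4 to 22.3 CPM in Prmt1-dKO. Nrg1 (chr8:31814551-32884029), the ligand of ERBB3 and ERBB4, was at -0.21 (SE 0.23, edgeR FDR = 0.546), with 8.48 to 10.8 CPM in WT and 5.58 to 9.96 CPM in Prmt1-dKO. The TPM of Fgf2, Csf1, Nrg1 and Cxcl12 overlapped between the groups, as their CPM did. The share of all genes without overlap in TPM was not taken.

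**Figure D2:**
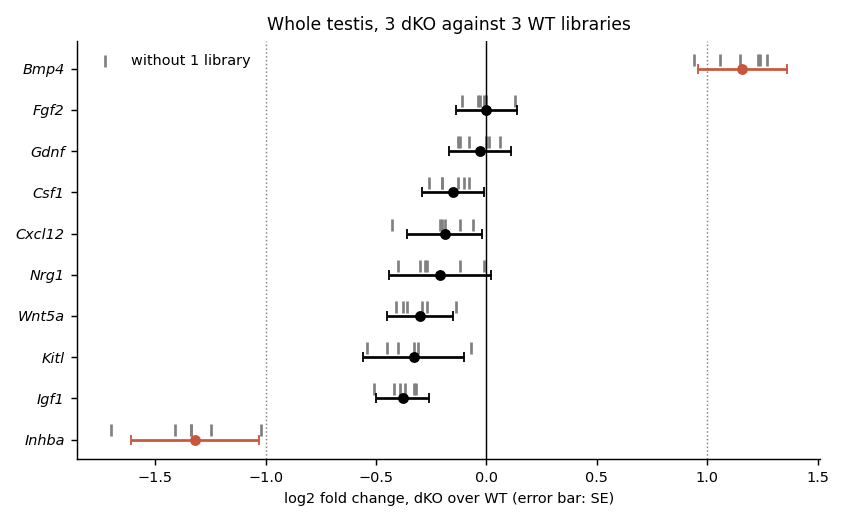
Log2 fold changes of the 10 factors in whole testis (Prmt1-dKO over WT, 3 libraries each), with error bars for the SE and grey ticks for the value with 1 library left out. Dotted lines mark 2-fold. Bmp4 at 1.16 and Inhba at -1.32 are in red as called, and the other 8 lie between -0.38 and 0.00.

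Prmt1-dKO replicate 2 was the lowest of the 6 testes for 7 of the 10 factors (Kitl, Fgf2, Cxcl12, Csf1, Inhba, Wnt5a and Nrg1), against 28.5% of all genes tested. Over these 6 libraries Kitl and Wnt5a had a Pearson correlation of log2 CPM of 0.96, and Bmp4 and Inhba of -0.96. These are descriptions of 6 points that share their libraries. The genes most like Bmp4 over the 6 testes were Plb1 (r = 0.9996), Slc12a3 (0.9957) and Sgce (0.9953). Those most like Inhba were Naa50 (0.9988), Tmed2 (0.9986) and Yap1 (0.9982). With so few points, 1389 of 16554 genes had a correlation above 0.9 with Bmp4 and 1254 with Inhba.

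The marker genes of the cells that make these factors also differed in the whole testis, where fewer cells of a type and less RNA per cell cannot be told apart. The summed level of 8 Sertoli markers was 5101.1 to 5783.4 CPM in WT and 4004.4 to 4549.1 CPM in Prmt1-dKO, and 4 of 8 passed the test, all lower. The 7 Leydig markers summed to 718.4 to 843.0 CPM in WT and to 422.9 to 484.6 CPM in Prmt1-dKO, with 4 called lower and Lhcgr passing higher. The 6 peritubular myoid markers summed to 1102.7 to 1238.4 CPM in WT and to 401.8 to 817.5 CPM in Prmt1-dKO, where 5 passed lower and 4 of them were called. The 7 macrophage markers summed to 95.2 to 113.7 CPM in WT and to 112.8 to 152.3 CPM in Prmt1-dKO, and Lyz2 passed higher and Mrc1 lower. The 5 stromal markers summed to 3840.6 to 4203.6 CPM in WT and to 3644.5 to 4043.7 CPM in Prmt1-dKO, which overlap, and 3 of them passed higher (Tcf21, Dcn and Lum). Of 5 endothelial markers, with overlapping sums of 191.9 to 205.8 and 187.2 to 215.7 CPM, 1 passed higher and 1 lower. The 9 germ cell markers summed to 1118.5 to 1301.0 CPM in WT and to 1145.0 to 1219.5 CPM in Prmt1-dKO, which overlap. Of the 8 tested 1 passed lower. The part of these cell types in the Bmp4 and Inhba values was not tested.

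In the whole testis most receptors of these ligands did not pass the test. Of 31 receptor genes, all tested, 3 passed higher and 2 passed lower (10.6% and 8.51% of all genes tested), with a median log2 fold change of -0.03 beside 0.02 for all genes. Ret, the signalling receptor of GDNF, rose from 52.9, 54.0 and 49.6 CPM to 68.5, 62.1 and 82.3 CPM (log2 fold change 0.44, SE 0.13, edgeR FDR = 0.0382). Ror2, a receptor of WNT5A, was at 0.43 (SE 0.12, edgeR FDR = 0.0366). Gfra2, a coreceptor of the GDNF family, was the only receptor called, from 6.29, 6.74 and 8.48 CPM to 3.07, 3.27 and 2.41 CPM (-1.30, SE 0.23, edgeR FDR = 0.00553). Gfra1 at 0.54 and Kit at -0.53, log2 fold changes, missed the threshold (edgeR FDR 0.067 and 0.112). The receptors Fgfr1 (-0.05), Cxcr4 (0.20), Csf1r (0.27), Bmpr2 (-0.38), Acvr2b (-0.14), Erbb3 (0.07) and Igf1r (0.23) had an edgeR FDR of 0.208 or more.

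Of 28 binding proteins, antagonists and processing enzymes of the ligands 24 were tested, and 5 passed higher and 6 lower, beside the same 10.6% and 8.51% of all genes. The protease Mmp9 is among the higher ones. The called ones were both lower. Fstl3, which binds activins, fell from 68.0, 68.5 and 76.4 CPM to 38.2, 32.7 and 34.8 CPM (log2 fold change -1.01, SE 0.11, edgeR FDR = 0.00133). Igfbp5, an IGF-binding protein, fell from 109.4, 93.2 and 95.3 CPM to 45.2, 50.7 and 27.2 CPM (-1.28, SE 0.21, edgeR FDR = 0.00439). Inha, whose product pairs with the activin subunits to form inhibins, was also lower (-0.62, SE 0.11, edgeR FDR = 0.00664).

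Of 40 other secreted factors of the testis 38 were tested, and 4 passed higher and 5 lower, near the 10.6% and 8.51% of all genes. Amh, made by Sertoli cells and also one of the Sertoli markers, was called lower, from 618.4, 506.0 and 682.5 CPM to 162.5, 232.6 and 123.6 CPM (log2 fold change -1.80, SE 0.22, edgeR FDR = 0.00184). Fgf9 (1.48, SE 0.34, edgeR FDR = 0.0173) and Fgf10 (1.35, SE 0.41, edgeR FDR = 0.0467) were called higher at low levels, with no WT testis above 1.76 CPM. Of 25 target and feedback genes 3 passed higher and 1 lower, beside those same shares of all genes. The higher ones were Id1 (0.99, SE 0.16, edgeR FDR = 0.00479) and Id3 (0.69, SE 0.18, edgeR FDR = 0.0324), which are BMP targets, and Lef1 (0.69, SE 0.19, edgeR FDR = 0.038). The other BMP targets of the list did not pass, with Id2 at 0.59 (edgeR FDR = 0.0608), Smad6 at 0.36 (0.426) and Smad7 at -0.11 (0.792). Ccnd2, a D-type cyclin, was called lower, from 455.6, 385.0 and 358.8 CPM to 208.0, 147.9 and 193.0 CPM (-1.13, SE 0.15, edgeR FDR = 0.00239).

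In sorted WT spermatogonia 7 of the 10 factors had at most 1 count. Gdnf, Csf1, Bmp4, Inhba, Wnt5a and Igf1 had 0 counts in both WT libraries, where 3 counts are worth 0.155 and 0.157 CPM. Nrg1 had 1 count in 1 library. Kitl had 168 and 91 counts, Fgf2 139 and 187, and Cxcl12 147 and 0. Against the 3 WT testes, all 10 were lower in sorted WT cells and 9 were called (edgeR, all but Cxcl12 with an FDR of 0.057). The 7 factors with at most 1 count in the sorted cells entered this test only through the whole testes, where they are high. Of the 16941 genes tested in that comparison, 33.1% were lower at an FDR below 0.05 and 30.0% were lower by at least 2-fold as well.

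Against the floor of 3 counts over both sorted WT libraries, whole WT testis was at least 395.6-fold higher for Gdnf, 858.4-fold for Inhba, 1380.0-fold for Wnt5a and 2372.0-fold for Igf1. Kitl was 43.7-fold (log2 fold change -5.45, SE 0.35, edgeR FDR = 0.000951) and Fgf2 3.57-fold lower in sorted cells (-1.84, SE 0.24, edgeR FDR = 0.00378). Both gaps were smaller in TPM. Kitl had a mean of 108.3 TPM in WT testes and 10.9 TPM in sorted WT cells, and Fgf2 of 9.0 and 3.92 TPM. Cell population and library protocol differ together here and cannot be told apart. The 9 germ cell markers summed to 2255.4 and 2377.7 CPM in sorted WT cells and to 1118.5 to 1301.0 CPM in WT testes. Tex101, a surface protein of male germ cells, held most of this gap, with 1061.1 and 1087.4 CPM in sorted WT cells and 30.4 to 40.3 CPM in WT testes. The other 8 summed to 1194.4 and 1290.3 CPM in sorted WT cells and to 1088.1 to 1260.6 CPM in WT testes, ranges that overlap. Of the 9 markers 2 passed higher in sorted cells. All 8 Sertoli markers still had counts in every sorted library.

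In sorted Prmt1-dKO cells the same factors had counts. Gdnf was read at 36 and 86 counts (2.32 and 5.69 CPM), Wnt5a at 74 and 113 (4.76 and 7.48 CPM), and Nrg1 at 46 and 45 (2.96 and 2.98 CPM). Relative to the floor of 3 counts over both WT libraries, Gdnf was at least 51.0-fold and Wnt5a at least 78.2-fold higher. The ratio for Nrg1 rests on 1 WT count and is not set against that floor, at 114.1 with a 95% interval of counting error from 20 to 4557.2. The ratio was smaller in TPM, where Nrg1 was at 0.34 and 0 in WT and at 1.63 and 2.58 in Prmt1-dKO. Igf1 had 17 and 6 counts and Csf1 had 5 and 1, higher than WT in both libraries but few. Bmp4 with 39 and 0 counts and Inhba with 7 and 0 were seen in 1 library each, so their groups overlapped.

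Kitl was at 8.69 and 4.76 CPM in sorted WT and at 22.1 and 23.7 CPM in sorted Prmt1-dKO. Cxcl12 was at 7.60 and 0 CPM in WT and at 19.8 and 14.8 CPM in Prmt1-dKO, but on the TPM scale the groups overlapped, at 5.67 and 0 in WT and at 4.58 and 4.38 in Prmt1-dKO. Fgf2 went the other way, from 7.19 and 9.79 CPM to 1.54 and 0.132 CPM. Fgf2 is overlapped on the opposite strand by Nudt6, read at 510 and 402 counts in WT and 286 and 178 in Prmt1-dKO, and by Gm42923, at 141 and 82 counts and at 5 and 3. Gm43439 overlaps Fgf2 on the same strand over 56521 bp and had 18 counts in WT replicate 2 and 0 in the other sorted libraries. Reads of the opposite-strand overlaps cannot be told apart without strand, and strand would not separate those of Gm43439.

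**Figure D3:**
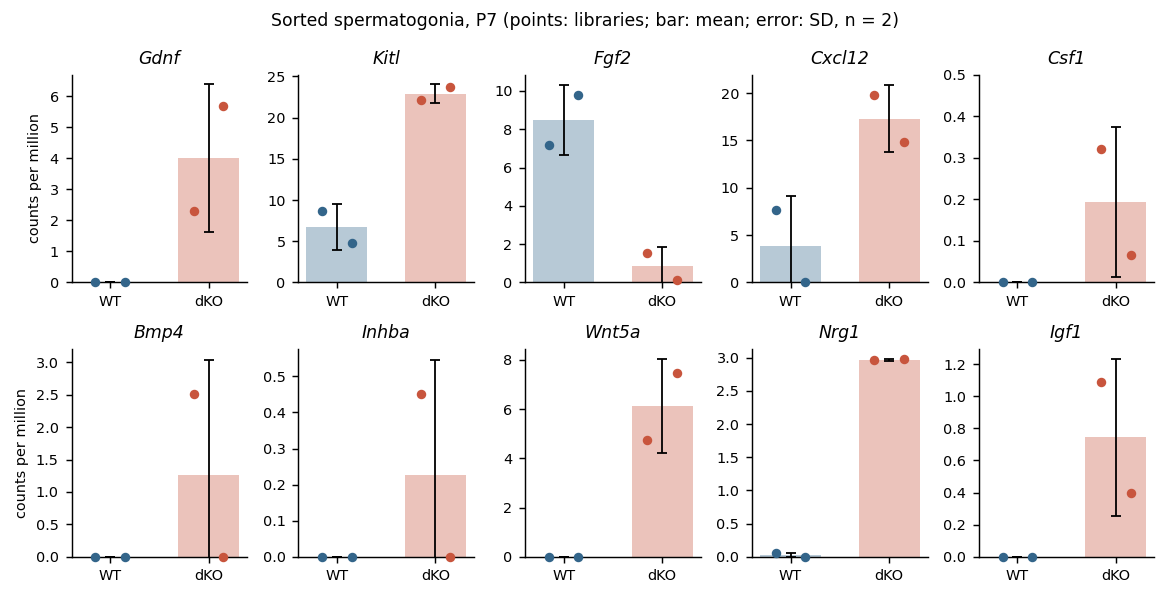
CPM of the 10 factors in sorted spermatogonia at P7, with 1 point per library, bars for the mean and error bars for the SD of 2 WT (blue) and 2 Prmt1-dKO (red) libraries, cut at 0. In 6 panels both WT points are at 0, and Fgf2 is the only panel with both WT points above both Prmt1-dKO points.

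The sorted libraries allowed a test of 6 of the 10 factors, and edgeR called 0 of them and 0 of all 16443 genes tested (0.0%). The edgeR FDR was 0.0777 for Gdnf, 0.0773 for Wnt5a, 0.0835 for Nrg1, 0.22 for Kitl, 0.298 for Fgf2 and 0.672 for Cxcl12, with 2 libraries a group. At an unadjusted p under 0.05 edgeR had 3 of these 6 and 3912 genes in all. DESeq2 called 1568 of 16783 genes with an FDR (9.34%) and 2 of 7 factors, and limma-voom called 1696 of 16443 genes (10.3%) and 2 of 6 factors, which were Gdnf and Wnt5a with both tools. Gdnf, Wnt5a and Nrg1 entered these tests only through the Prmt1-dKO libraries, having at most 1 count in WT, so counts over the factors tested do not show that the list differs. With WT replicate 1 or WT replicate 2 left out, edgeR called 7 of 8 factors tested, beside 41.6% and 33.9% of all genes, and the lone WT library was then taken to vary as the Prmt1-dKO ones did.

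The summed macrophage, stromal and Sertoli markers were higher in both sorted Prmt1-dKO libraries than in both WT libraries, as were the Leydig ones by a few CPM, and the myoid sums overlapped. None of the 7 macrophage markers had a count in either sorted WT library. In sorted Prmt1-dKO 6 of the 7 had counts in both libraries, with 62.1 and 50.9 CPM in sum, and Adgre1 stayed at 0. Lyz2 alone had 385 and 260 counts. Csf1r, the receptor of Csf1 and itself characteristic of macrophages, went from 0 and 0 to 6.18 and 8.27 CPM. The 5 stromal markers went from 20.6 and 7.59 CPM in sum to 103.2 and 79.2 CPM, with Tcf21 and Dcn at 0 in WT, and the 8 Sertoli markers from 310.0 and 274.4 to 543.4 and 673.8 CPM. The endothelial sum, 67.4 and 74.4 CPM in WT and 53.9 and 59.1 CPM in Prmt1-dKO, was Egfl7 alone in WT, and Egfl7 was at 51.5 and 56.9 CPM in Prmt1-dKO. The endothelial markers Pecam1, Cdh5 and Kdr went the other way, from 0 in both WT libraries to counts in both Prmt1-dKO libraries (22 and 2, 12 and 31, and 3 and 1), and Emcn was at 0 in all 4. Peritubular myoid sums were 9.83 and 5.08 CPM against 10.5 and 7.22 CPM. Within them Cnn1 rose from 0 in both WT libraries to 21 and 52 counts, and Des to 25 and 23. Tagln fell from 45 and 97 counts to 8 and 2, and Acta2, Myh11 and Actg2 overlapped. Leydig sums were 20.7 and 24.5 against 26.5 and 28.0 CPM, with Cyp17a1, Cyp11a1 and Lhcgr at 0 in all 4. Hsd3b1 went from 0 in both WT libraries to 25 and 72 counts, and Insl3 to 5 and 8. Star and Nr5a1 overlapped. The 9 germ cell markers summed to 2255.4 and 2377.7 CPM in WT against 2316.2 and 2120.2 CPM in Prmt1-dKO, but they did not stay level one by one. Tex101 was at 1061.1 and 1087.4 CPM in WT and at 538.4 and 470.7 CPM in Prmt1-dKO, and the other 8 summed to 1194.4 and 1290.3 against 1777.8 and 1649.5 CPM. Within the sorted libraries edgeR passed none of the 9, as it passed no gene, with 4 at an unadjusted p under 0.05. DESeq2 passed Tex101, Sall4 and Nanos3, and limma-voom passed Tex101 and Sall4. The part of other cells in the values of the factors was not tested.

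**Figure D4:**
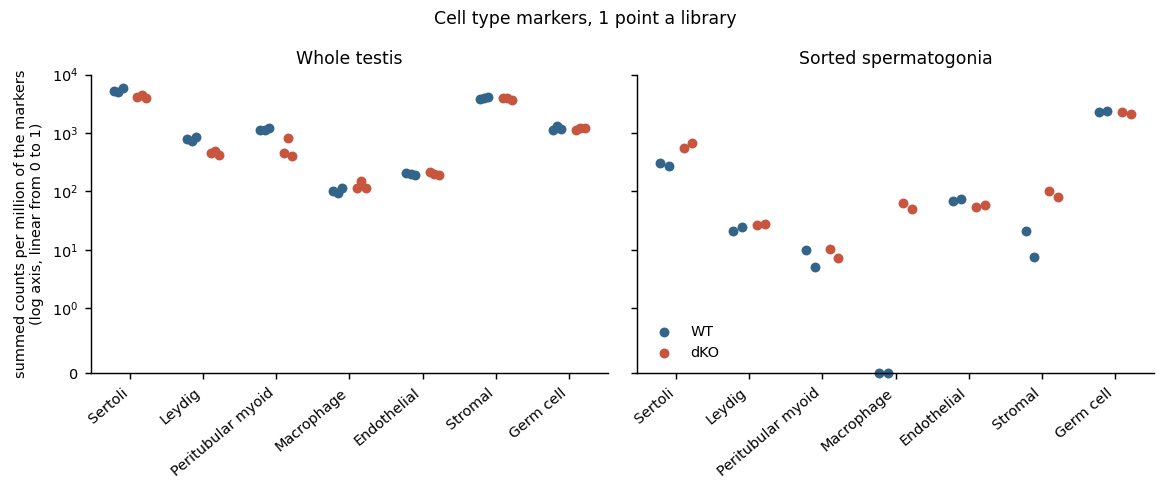
Summed CPM of the marker lists of 7 cell types in each library of whole testis (left) and sorted spermatogonia (right), WT in blue and Prmt1-dKO in red, on a log axis that is linear from 0 to 1. The macrophage markers are at 0 in both sorted WT libraries and at 62.1 and 50.9 CPM in the sorted Prmt1-dKO libraries, while the germ cell markers lie between 2120.2 and 2377.7 CPM in all 4, a sum in which Tex101 is lower and the other 8 markers together are higher in Prmt1-dKO.

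The genotype difference was then compared between sorted cells and whole testis over all 10 libraries. In this test of the difference 7 of 10 factors passed. The genotype difference was higher in sorted cells for 6 (Wnt5a, Gdnf, Igf1, Nrg1, Csf1 and Kitl) and lower for 1 (Fgf2). Of the 19609 genes tested 14.7% passed higher and 4.24% lower. Wnt5a, Gdnf, Igf1, Nrg1 and Csf1 had at most 1 count in sorted WT cells. They entered the test only through groups where they are high, so the count does not show that the list differs. The fit shares 1 estimate of spread between assays that differ in it: the biological coefficient of variation was 0.155 in the fit of whole testis, 0.767 in that of sorted cells and 0.449 in this one. Within the sorted libraries alone edgeR called no gene. For Kitl, which had counts in every library, the difference was 2.18 on the log2 scale (SE 0.48, edgeR FDR = 0.0134). Cxcl12 (edgeR FDR = 0.249), Bmp4 (0.123) and Inhba (0.0675) did not pass. Among the receptors 10 of 31 passed this test, all with a higher genotype difference in sorted cells. Ret, a receptor that spermatogonia carry, was at 23.2 and 21.9 CPM in sorted WT and at 113.5 and 72.5 CPM in sorted Prmt1-dKO (edgeR FDR = 0.0773 within the sorted libraries). Gfra1 was at 14.1 and 26.1 CPM and at 54.4 and 48.9 CPM (edgeR FDR = 0.152), and Kit was at 224.3 and 202.1 CPM and at 222.4 and 258.5 CPM (edgeR FDR = 0.634).

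Histone marks at the promoters were read from peak lists, which the authors called separately for each library of strained tubule cells. A gene is called marked here if a summit fell within 3000 bp of any of its annotated transcript starts in 2 or more lists of that group, so the lists may differ in the start. The peaks of H3K4me3 were cut by q-value and those of the other marks by p-value, so counts should not be set between them. H3K4me3, the mark of active and poised promoters, was found at all 10 factors at P7 and at P14, against 60.7% and 63.1% of 21951 protein-coding genes. H3K27ac, the mark of active promoters and enhancers, was found at Gdnf, Kitl and Fgf2 at both ages, against 31.0% and 48.9% of genes. At P14 the Fgf2 summits of the lists lay near different starts, and with lists shortened to equal length or a window of 1000 bp Kitl alone was left at that age. Shortened lists also left H3K4me3 at 8 factors at P14, without Inhba and Igf1. Genes with many starts have more chances of a peak: Gdnf has 1 annotated start, and Nrg1 has 15 over 1034654 bp.

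The H3K4me3 peaks differed in width. The widest promoter peak of Wnt5a was 2527 and 2359 bp in the P7 lists, wider than at 99.7% and 99.5% of genes with a peak, where the median was 1130.0 and 1055.0 bp. Kitl had 2087 and 2058 bp (97.5 and 98.1 in percentile) and Gdnf 1802 and 1606 bp (92.1 and 88.6). Inhba was at the other end with 554 and 547 bp (11.0 and 12.9). At P14 the Kitl peaks were 1059 and 858 bp wide (52.1 and 30.0 in percentile), the Wnt5a peaks 990 and 1876 bp (45.8 and 96.5), and the Inhba peaks 577 and 538 bp (15.3 and 11.8). Gdnf had 1278 and 1607 bp (72.2 and 89.8), and Igf1 was the narrowest on both percentiles with 456 and 484 bp (9.9 and 9.81), from 825 and 1056 bp (24.8 and 50.1) at P7.

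At Bmp4 the H3K4me3 summit did not lie at the start shown above. In the P7 lists the strongest peak had its summit 339 and 360 bp upstream of the start at base 46387304 of chromosome 14, inside the gene, and in the P14 lists 338 and 384 bp upstream of the same start. In these 4 lists every H3K4me3 summit within 3000 bp of a Bmp4 start was nearest to 46387304 and none to 46390669, the 5′ end of the annotated gene. The 200 bases around the summit of P7 replicate 1 held 17 CpG, no GC box and no TATA box, and are given on the minus strand because they lie apart from the promoter window printed for the same gene.
Bmp4 H3K4me3 summit, chr14:46387543-46387742, minus strand: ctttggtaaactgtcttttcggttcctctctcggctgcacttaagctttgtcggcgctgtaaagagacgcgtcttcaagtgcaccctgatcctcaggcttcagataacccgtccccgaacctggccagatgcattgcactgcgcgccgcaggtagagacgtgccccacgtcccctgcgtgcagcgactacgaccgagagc

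At P7 each arginine mark was found at 0 to 2 of the 10 factors, where the share of all genes would give about 1 to 2, so these counts are not a result about the factors. H4R3me2a, the product of PRMT1, marked 0 of 10 against 15.3% of protein-coding genes, and H3R8me2a marked 0 against 9.71%. H3R2me2a marked Fgf2 (11.0% of genes) and H4R3me1 marked Wnt5a (10.8%). H4R3me2s, the symmetric form on the same arginine, marked Fgf2 and Cxcl12 in WT (17.8% of genes) and 0 of 10 in Prmt1-dKO (9.82% of genes). For both H3R2me2a and H4R3me2s the Fgf2 summits of the lists lay near different starts, and with the same start asked for in 2 lists, a rule chosen after seeing the data, Fgf2 carried neither. The Cxcl12 summits lay 245 and 281 bp after a start, and 1 of the 2 Prmt1-dKO lists held a summit at -1225 bp from a start. Nothing was tested between these lists, which held 19981 and 36145 peaks in WT and 33941 and 28221 in Prmt1-dKO.

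At P14 more of the factors were marked by H4R3me2a, H3R2me2a and H3R8me2a, whose lists were longer than at P7, and the numbers for the other 4 marks were those of P7. The counts for H4R3me2a and H3R2me2a lay near the share of all genes, and those for the other 3 arginine marks below it, so they are not a result about the factors. H4R3me2a marked Fgf2, Csf1, Bmp4, Wnt5a, Nrg1 and Igf1 (49.0% of genes). With 1 of its 3 lists left out this became 2 without replicate 1 (Fgf2 and Csf1), 3 without replicate 2 (those and Bmp4) and 5 without replicate 3 (Fgf2, Csf1, Wnt5a, Nrg1 and Igf1). H3R2me2a marked those without Igf1, and also Kitl and Inhba (51.3%). H3R8me2a marked Fgf2 and Wnt5a (33%), H4R3me1 marked Inhba (29.9%), and H4R3me2s marked Inhba and Nrg1 (34.2%), of which Inhba was left without replicate 1, neither without replicate 2 and Nrg1 without replicate 3. The names of peaks in the 3 P14 H4R3me2s lists carry the number 17 where those of the P7 WT lists carry 7, while the sample labels say day 14, and the P14 samples are titled spermatogonia but have spermatocyte as cell type. The H4R3me2a lists held 16995 to 18722 peaks at P7 and 39597 to 44836 at P14. When lists of a mark were shortened to equal length, 0 of 10 factors were marked by H4R3me2a at both ages and 2, Csf1 and Nrg1, by H3R2me2a at P14. Most of these marks were lost under a stricter threshold. With peaks of q at most 0.01, H3K4me3 kept all 10 factors at both ages and of the other marks only Kitl (H3K27ac) and Csf1 and Nrg1 (H3R2me2a), all at P14, were left.

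**Figure D5:**
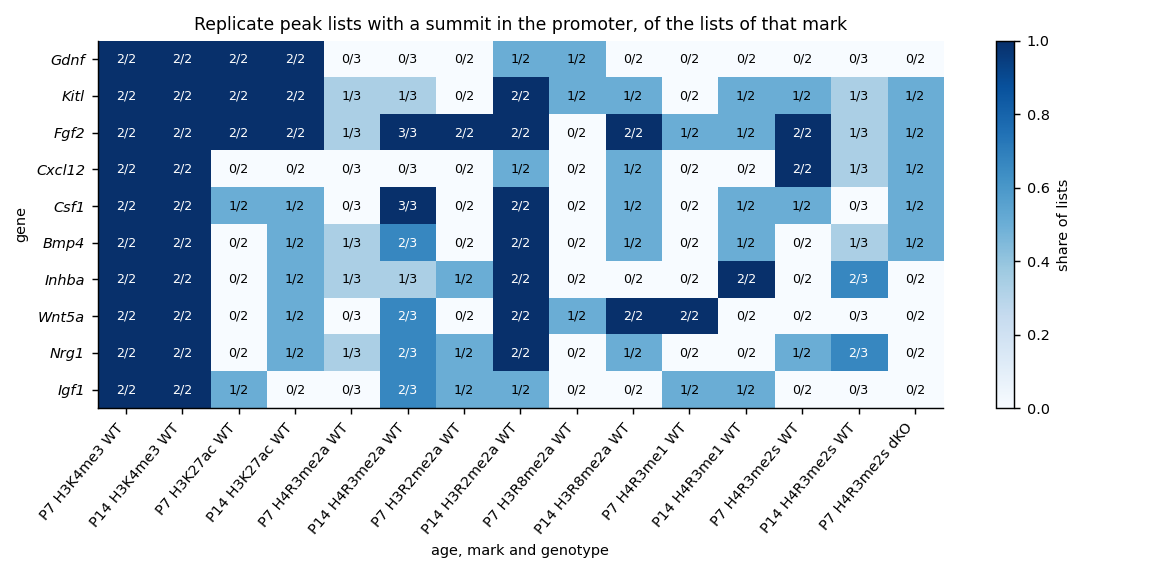
Number of replicate peak lists with a summit within 3000 bp of a transcript start, of the lists of that age, mark and genotype, for the 10 factors (rows). H3K4me3 is found in 2 of 2 lists for each factor at both ages, H3K27ac in 2 of 2 lists for Gdnf, Kitl and Fgf2, and H4R3me2a at P7 in at most 1 of 3 lists.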

How the data were processed

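The expected counts that the authors deposited for 10 RNA libraries came from reads trimmed with fastp 0.23.2, aligned to mm10 with STAR and quantified by RSEM, and are not normalized. The TPM that the authors deposited are scaled by RSEM within a library and were used for order between genes. The FPKM deposited beside them were not used. The peak lists of 33 CUT&Tag libraries were called by the authors with MACS2 2.1.0 per library (a q-value cut for H3K4me3, a p-value cut for the others), and hold a fold enrichment (a ratio) and the deposited −log10 p-value and q-value of each peak. Which RSEM version and annotation were used is not given in the sources used here.

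Rounded counts of genes that passed filterByExpr (minimum count 10, minimum total 15) were normalized by TMM. All genes entered 1 quasi-likelihood fit per comparison (edgeR 4.0.16 under R 4.3.3), with no replicate block. A gene passed at a Benjamini-Hochberg FDR below 0.05 and was called at a change of at least 2-fold as well. The interaction of assay and genotype was fitted over all 10 libraries. The fits and the placing of peaks were tested on simulated data. CPM are on the TMM scale of each assay. Intervals and floors (3 counts) cover counting error only. Alternatives were DESeq2 1.42.0, limma-voom 3.58.1, other size factors, no filter, leaving out libraries, and other peak rules.

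The factors and gene lists were chosen with earlier results of these data known. Named are all factors, Prmt1, up to 4 called genes per pathway list by smallest p, 11 receptors, and the 3 genes most correlated with each called factor. Other genes named (Inha, Id1, Id2, Id3, Smad6, Smad7, Lef1, Tex101, Sall4, Nanos3, Mmp9, Egfl7, Lum, Lyz2, Mrc1, Lhcgr, Adgre1, the other named Leydig and myoid markers, overlapping transcripts and markers at 0) were picked after their values were seen.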

Additional observations from a re-analysis of the deposited data

Results flagged for a closer look

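For 7 factors the genotype difference (Prmt1-dKO minus WT, log2) in sorted cells differed from that in whole testis by the interaction test of edgeR, 2 and 2 sorted against 3 and 3 whole-testis libraries. Of the 19609 genes tested 14.7% passed higher and 4.24% lower. Wnt5a, Gdnf, Igf1, Nrg1 and Csf1 entered only through groups where they are high, so the count does not show that the list differs. The gap was 9.92 for Wnt5a (FDR = 0.000168), 9.05 for Gdnf (FDR = 0.000571), 6.75 for Nrg1 (FDR = 0.00115), 6.99 for Igf1 (FDR = 0.00273), 2.18 for Kitl (FDR = 0.0134), 4.86 for Csf1 (FDR = 0.0199) and -3.24 for Fgf2 (FDR = 0.0373). Where the sorted WT libraries are at 0 (Wnt5a, Gdnf, Igf1 and Csf1) the size depends on the prior count of the fit and is no bound. Without sorted Prmt1-dKO replicate 1 Csf1 was lost (FDR = 0.287), and Fgf2 was lost without any 1 of the 6 whole-testis libraries (edgeR FDR between 0.0537 and 0.0819). With a sorted WT library left out Cxcl12 also passed (FDR = 3.27e-06 without replicate 1 and 0.0078 without replicate 2), and without sorted Prmt1-dKO replicate 2 Bmp4 (FDR = 0.00206) and Inhba (FDR = 0.0177) did. With DESeq2 9 factors passed, Bmp4 (FDR = 0.0345) and Inhba (FDR = 0.005) among them. The fit pools the spread of assays that differ in it, with a biological coefficient of variation of 0.155 in whole testis and 0.767 in sorted cells. Assay and cell population differ together and cannot be told apart.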

How the results depend on the processing

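Of the factors, 2 were called in whole testis under DESeq2, limma-voom, RLE size factors, no filter, a replicate block and no minimum fold change, and 1 to 2 with a library left out. For the sorted cells 0 were called under RLE size factors, no filter and the replicate block, 2 with DESeq2 and 2 with limma-voom, and 0 to 7 with a library left out. The interaction called 7 factors, 6 to 9 with a library left out, 9 with DESeq2, and 7 with the replicate block, where Bmp4 passed (edgeR FDR = 0.0301) and Fgf2 did not (0.101). Sorted against whole WT called 9, and 9 to 10 with a library left out. Same-numbered libraries were not shown to be paired (correlation of deviations 0.0829, -0.221 and -0.118 in whole testis, 0.0178 in sorted cells), and with the replicate block sorted against whole WT called 0. Of the pathway genes 7 were called, 5 to 9 with a library left out and 29 with no minimum fold change. Of 150 pairs of factor and peak group 48 were marked, 23 with q at most 0.01, 30 with lists of equal length, 95 with 1 list enough, 43 with the same start in 2 lists (chosen after seeing the data; Fgf2 was lost in 4 groups and Wnt5a in P14 H4R3me2a), and 43 to 46 with a list left out in the 3 groups that have 3 lists, the other 12 having 2 and kept whole. The direction of Gdnf in whole testis turned in 2 of 6 leave-outs (range -0.13 to 0.06). Fgf2 turned with RLE size factors (-0.00), no filter (-0.02), the replicate block (-0.01), DESeq2 (-0.02) and limma-voom (-0.01), and ranged from -0.11 to 0.13 with a library left out. The cause was not tested.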
